A study of Rattus norvegicus with 72 samples.

Results

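The circadian clock genes were examined in rat lung after inhalation of diesel exhaust particles (DEP), in a set of 10 genes: the activators Arntl and Npas2, the repressors Per1, Per2, Per3, Nr1d1, Nr1d2 and Ciart, and the output factors Dbp and Tef. The genes were chosen by symbol, and all 10 were found among the 30042 genes of the count table. All 10 also passed the filter on low counts in every fit. Adult male Sprague-Dawley rats, housed in pairs, breathed a whole-body aerosol of DEP, at 1000 or 200 µg/m3, or filtered air, for 4 days, 6 hours a day. Killing followed 1, 7 or 27 days later. At each time there were 4 groups of 6 rats: DEP1000 lungs with the air lungs that carry the same letter H, and DEP200 lungs with the air lungs that carry the letter L. The labels do not spell out the letters, and DEP1000 occurs only with H and DEP200 only with L, so concentration and set cannot be told apart between exposed groups. Each of the 72 libraries is 1 animal, made from total RNA of a piece of lung after removal of ribosomal RNA. The rats lived under a light-dark cycle, but the labels used here give neither the hour of exposure nor the hour of killing, so a difference in hour between groups was not tested.

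Levels are given as CPM (counts scaled to a fixed library total) after TMM scaling, which divides each library by its total and a composition factor. The deposited totals ran from 1042336 to 2397971 counts over the 24 libraries of day 1, from 3471134 to 6279763 over 23 libraries of day 7 and from 3761631 to 6520180 over 22 libraries of day 27. Another 3 DEP1000 libraries were far shallower: animal 37 of day 7 had 105453 counts, and animals 24 and 45 of day 27 had 439393 and 149004. They are called the shallow libraries here, and results that rest on them are given with and without them. Lung markers stood at high levels throughout: the 7 surfactant and type II pneumocyte genes summed to between 9851 and 22973 CPM per library, and the 6 type I pneumocyte genes to between 3437 and 4759 CPM. In whole tissue, fewer cells of a type and less RNA per cell cannot be told apart.

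As background, the mammalian clock is a loop of transcription and repression. ARNTL (also called BMAL1) pairs with CLOCK or NPAS2, binds E-boxes and switches on the Per, Cry, Nr1d1, Nr1d2, Dbp, Tef and Ciart genes. PER and CRY proteins, and CIART (CHRONO), then silence that pair, while NR1D1 and NR1D2 (REV-ERB alpha and beta) repress Arntl and Npas2 through a retinoid-related orphan receptor element. DBP and TEF act on D-boxes, among them those of the Per genes. In rodent organs, lung included, Arntl and Npas2 therefore peak at about the opposite time of day to Nr1d1, Dbp and the Per genes. Per1 is also induced directly by glucocorticoids.

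The promoters of 4 members are shown as examples that hold an exact match to the E-box, the D-box or the receptor element. They come from RefSeq on rat assembly GRCr8, cover 250 bases before to 50 bases after the start site, and read 5′ to 3′ on the gene's own strand. Capitals mark the motif found. All 10 members had an entry, 9 by symbol and Arntl by its synonym Bmal1. Nr1d1 had 2 start sites, so 11 promoters were searched on both strands.
Arntl: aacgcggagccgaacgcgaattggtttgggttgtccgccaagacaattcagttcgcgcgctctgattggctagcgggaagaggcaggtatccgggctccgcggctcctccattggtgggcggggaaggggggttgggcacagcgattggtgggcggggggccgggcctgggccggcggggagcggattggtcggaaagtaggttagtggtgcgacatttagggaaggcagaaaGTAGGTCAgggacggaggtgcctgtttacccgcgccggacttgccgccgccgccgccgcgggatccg
Nr1d1: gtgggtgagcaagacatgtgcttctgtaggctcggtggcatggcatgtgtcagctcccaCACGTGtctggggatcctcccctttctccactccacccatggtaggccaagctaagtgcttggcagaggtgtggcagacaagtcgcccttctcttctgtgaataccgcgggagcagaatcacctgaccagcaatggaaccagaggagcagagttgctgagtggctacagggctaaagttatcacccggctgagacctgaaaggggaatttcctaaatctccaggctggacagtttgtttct
Ciart: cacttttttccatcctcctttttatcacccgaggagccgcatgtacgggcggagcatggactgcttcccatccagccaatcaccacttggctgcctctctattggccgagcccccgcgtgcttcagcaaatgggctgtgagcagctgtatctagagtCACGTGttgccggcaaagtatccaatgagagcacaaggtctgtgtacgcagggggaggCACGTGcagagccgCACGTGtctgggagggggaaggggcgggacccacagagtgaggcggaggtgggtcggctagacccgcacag
Per2: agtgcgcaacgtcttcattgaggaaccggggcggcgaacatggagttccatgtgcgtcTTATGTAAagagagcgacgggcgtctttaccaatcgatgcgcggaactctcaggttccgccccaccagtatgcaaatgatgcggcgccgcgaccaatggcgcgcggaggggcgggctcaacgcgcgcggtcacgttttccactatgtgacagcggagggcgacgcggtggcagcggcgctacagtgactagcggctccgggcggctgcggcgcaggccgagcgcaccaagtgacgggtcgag
The Arntl promoter (chr1:176766078-176766377, + strand) holds GTAGGTCA, the receptor element of NR1D1 and NR1D2, with its first base at -17 from the start site. It was the only member promoter with these letters, which occur in 0.598% of all 33469 promoters in the table. The E-box CACGTG, a palindrome, occurs in 6.42% of all promoters and in 3 of the 11 member promoters: that of the second Nr1d1 start site (chr10:84229405-84229704, - strand, at -191), that of Tef (at -198) and that of Ciart (chr2:186112197-186112496, - strand). The Ciart promoter holds 3 of them, at -93, -35 and -21. The D-box TTATGTAA occurs in 0.893% of all promoters and in that of Per2 (chr9:99496944-99497243, - strand, at -192). None of these motifs overlaps another, and a match describes letters only. Only these exact letters were searched for, so variants of the motifs are not marked.

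Across the whole study, 9 of the 10 members differed between at least some of the 12 groups in 1 fit of all 72 libraries (edgeR's quasi-likelihood test, Benjamini-Hochberg adjusted p below 0.05), against 58.5% of all 14956 genes tested. Per2, a repressor of the ARNTL pair, was the member that did not pass. The members differed widely in how much they moved. Over the 69 deeper libraries, Nr1d1 ranged from 1.24 CPM in animal 10 (air H, day 7) to 78.6 CPM in animal 62 (DEP200, day 1), which is 63.5-fold. Per1 ranged 7.27-fold, Dbp 5.86-fold, Nr1d2 4.59-fold, Per3 3.79-fold and Npas2 3.46-fold. Arntl was the steadiest, from 43.2 CPM in animal 78 (DEP200, day 7) to 90.04 CPM in animal 13 (DEP1000, day 7), or 2.08-fold. Within groups, the SD of log2 CPM was 0.77 for Nr1d1, 0.62 for Per1 and 0.43 for Dbp, and 0.18 for both Arntl and Ciart.

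**Figure D1:**
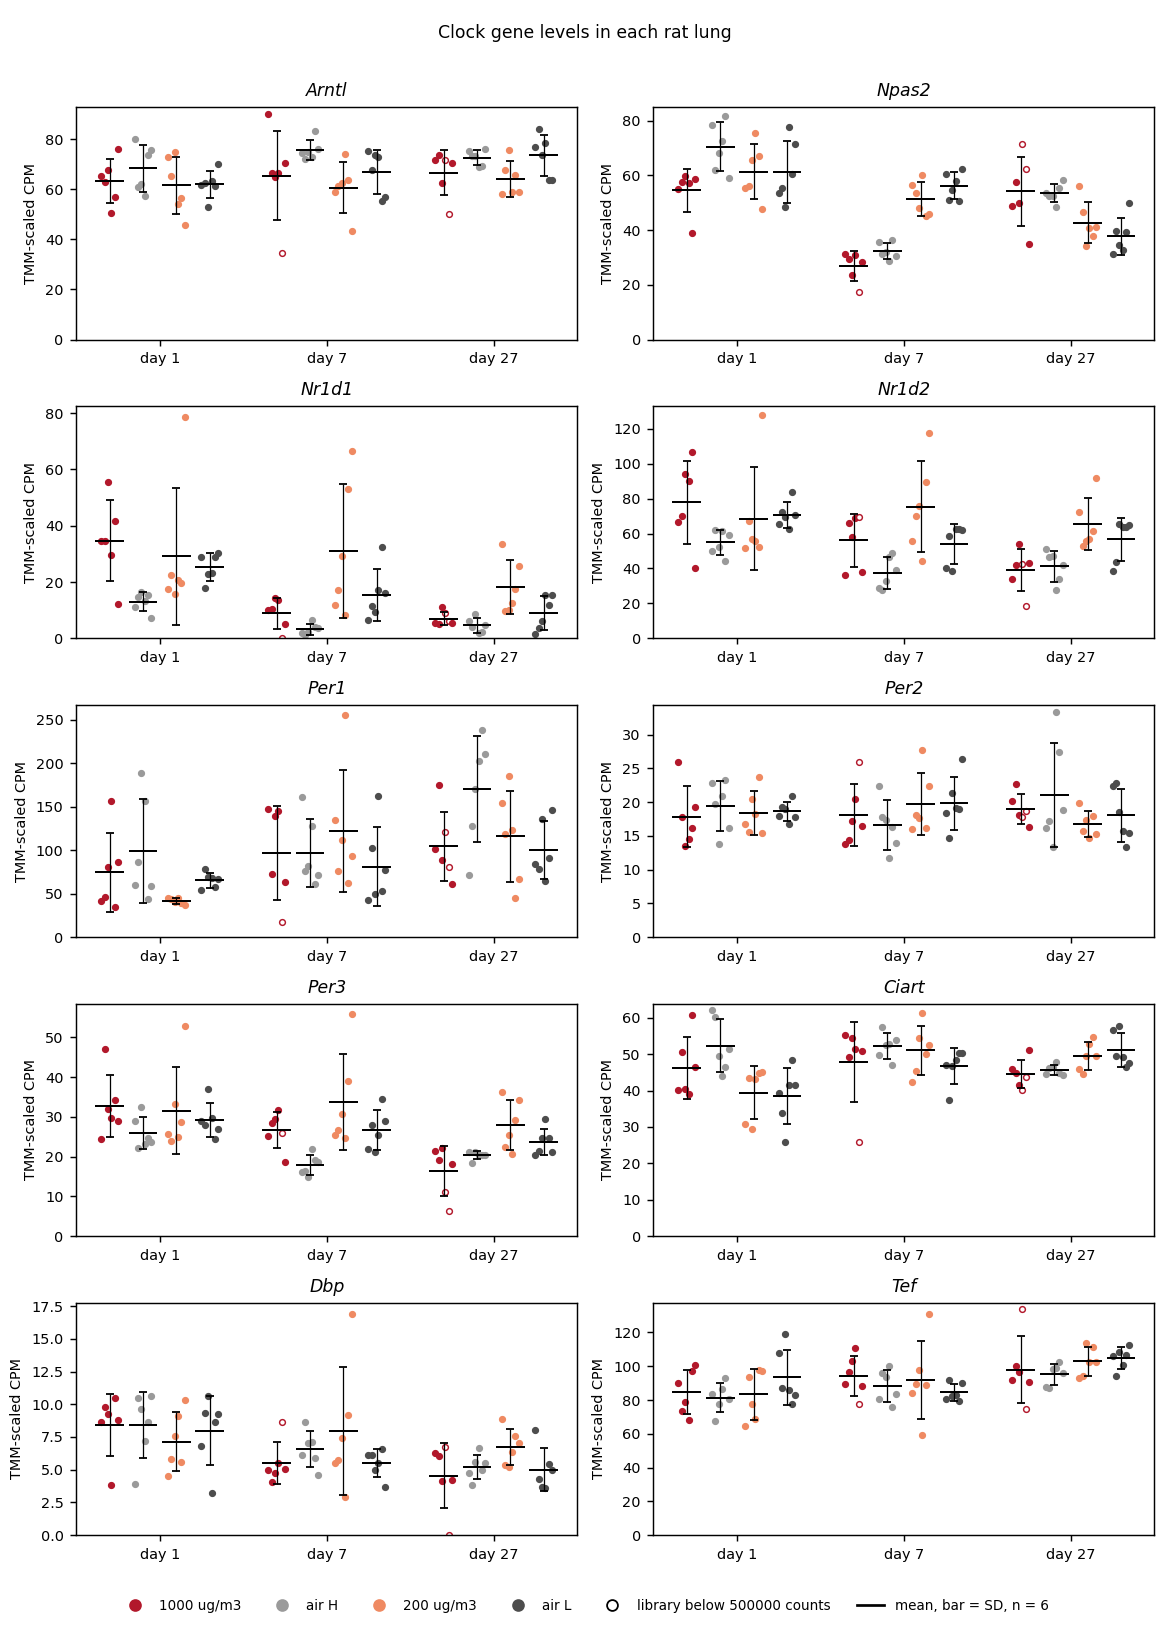
TMM-scaled CPM of each clock gene (vertical axis, from 0) in every lung, by group and day. Points are animals, open points are the 3 libraries below 500000 counts, and the black marks give the mean and SD of 6 animals; Nr1d1 spreads from near 0 to 78.6 CPM while Arntl stays between 34.6 and 90.04 CPM.

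The comparison of exposed with air lungs asks whether DEP inhalation left a mark on the clock genes. Exposed lungs averaged more Nr1d1 and slightly less Arntl than their air lungs at each concentration and day, and more Nr1d2 and Per3 in 5 of 6 comparisons by log2 fold change. No member passed in any of the 6 comparisons (0 of 10 each time, edgeR adjusted p below 0.05). The share of all genes called was 0% in 5 of them and 0.00698% in DEP200 against air L at day 7. DESeq2 and limma-voom also called 0 members in each of the 6. At an unadjusted p below 0.05, Nr1d1 passed in 4 of the 6 comparisons, Nr1d2 in 3, Per3 and Dbp in 2 each, Arntl and Npas2 in 1 each, and the others in 0. Over all genes, that limit was met by 419 (DEP1000) and 741 (DEP200) of 12304 at day 1. At day 7 it was met by 629 and 818 of 14331, and at day 27 by 1034 and 1430 of 14761.

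Nr1d1, the REV-ERB alpha receptor that represses Arntl, had a higher mean in exposed lungs in 6 of 6 comparisons. At day 1 the lowest, median and highest Nr1d1 levels were 12.3, 34.6 and 55.5 CPM in DEP1000 lungs, against 7.23, 13.9 and 16.5 CPM in air H lungs. The log2 fold change was 1.47 ± 0.40 (SE, n = 6 each, edgeR adjusted p = 1), with 5 of 6 exposed animals above the air median and the ranges overlapping. At day 1 in the L set they were 15.9, 20.2 and 78.6 CPM in DEP200 lungs, against 18.0, 26 and 30.4 CPM in air L lungs. The higher DEP200 mean there rests on animal 62 alone, since the other 5 DEP200 animals lay between 15.9 and 22.6 CPM, below the air L median.

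At day 7 the lowest, median and highest Nr1d1 levels were 0, 10.1 and 14.2 CPM in DEP1000 lungs, against 1.24, 2.94 and 6.64 CPM in air H lungs, a log2 fold change of 1.72 ± 0.64 (SE, edgeR adjusted p = 1). The 0 belongs to shallow animal 37, in which a count of 0 allows up to 26 CPM (3 counts, counting error only). In the L set they were 8.39, 23.2 and 66.4 CPM in DEP200 lungs, against 6.41, 13.7 and 32.5 CPM in air L lungs (log2 fold change 1.02 ± 0.45, edgeR adjusted p = 0.824). The exposed and air ranges overlapped in both sets.

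At day 27 the lowest, median and highest Nr1d1 levels were 5.09, 5.94 and 11 CPM in DEP1000 lungs, against 1.92, 4.38 and 8.63 CPM in air H lungs (log2 fold change 0.56 ± 0.53, edgeR adjusted p = 0.862). In the L set they were 9.78, 15 and 33.4 CPM in DEP200 lungs, against 1.52, 8.93 and 15.4 CPM in air L lungs (1.01 ± 0.42, edgeR adjusted p = 0.461). In both sets 6 of 6 exposed animals lay above the air median, and the ranges overlapped. Among the DEP1000 lungs, shallow animals 24 and 45 rest on 4 counts and 1 count of Nr1d1. Without them DEP1000 lungs averaged 6.80 ± 2.82 CPM (SD, n = 4), and all of the rest were above the air H median. The Nr1d1 values behind these levels are small counts. They ran from 6 to 29 per library in the air H lungs of day 7, and from 1 to 64 in the DEP1000 lungs of day 27.

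Nr1d2, the REV-ERB beta paralogue, followed with smaller differences. At day 1 it had 40.3, 80.1 and 106 CPM (lowest, median, highest) in DEP1000 lungs, against 44.5, 55.7 and 62.1 CPM in air H lungs, a log2 fold change of 0.51 ± 0.21 (SE, edgeR adjusted p = 1). At day 7 the log2 fold change of Nr1d2 was 0.55 ± 0.24 for DEP1000 over air H and 0.49 ± 0.22 for DEP200 over air L. In the remaining comparisons it lay between -0.03 and 0.21.

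Per3, a period gene that is dispensable for the core rhythm in mice, had a positive log2 fold change in 5 of 6 comparisons. The largest was at day 7, when Per3 averaged 26.6 ± 4.5 CPM in DEP1000 lungs and 17.9 ± 2.6 CPM in air H lungs (SD, n = 6 each). That log2 fold change was 0.59 ± 0.19 (SE, edgeR adjusted p = 1), with 6 of 6 exposed animals above the air median and the ranges overlapping. Among them, shallow animal 37 rests on 3 counts of Per3. Without it DEP1000 lungs averaged 26.7 ± 5.0 CPM (SD, n = 5). Per1 had no steady direction, with 3 positive and 3 negative log2 fold changes between -0.66 and 0.59. At day 1 Per1 ranged from 37.4 to 45.1 CPM in DEP200 lungs and from 54.3 to 78.5 CPM in air L lungs (log2 fold change -0.65 ± 0.38, SE, edgeR adjusted p = 0.859). Fitted with those 12 libraries alone, Per1 was 1 of 6 genes to pass there. Per2 log2 fold changes stayed between -0.10 and 0.01.

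Arntl, the obligate partner of CLOCK and NPAS2, had a lower mean in exposed lungs in 6 of 6 comparisons, by small amounts. At day 27 it had 58, 62.2 and 75.9 CPM (lowest, median, highest) in DEP200 lungs, against 63.7, 75.3 and 84.2 CPM in air L lungs, a log2 fold change of -0.19 ± 0.07 (SE, edgeR adjusted p = 0.441). The other 5 log2 fold changes of Arntl lay between -0.14 and -0.01. Shallow libraries counted, 5 of 6 exposed animals were below the air median in each of these 5 except DEP200 at day 1, where 3 were. Npas2, its partner that can stand in for CLOCK, averaged 54.5 ± 7.8 CPM in DEP1000 lungs and 70.4 ± 9.0 CPM in air H lungs at day 1 (log2 fold change -0.34 ± 0.12, SE, edgeR adjusted p = 1). Its other log2 fold changes ran from -0.17 to 0.18.

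Dbp, an output factor of the D-box, had 2 positive and 4 negative log2 fold changes. In the L set it had -0.17 ± 0.28 at day 1, averaged 7.95 ± 4.88 CPM in DEP200 lungs and 5.50 ± 1.05 CPM in air L lungs at day 7 (log2 fold change 0.56 ± 0.26, SE, edgeR adjusted p = 0.824), and at day 27 the log2 fold change was 0.44 ± 0.20. In the H set the Dbp log2 fold changes were -0.03, -0.41 and -0.01 at days 1, 7 and 27. Tef, a paralogue of Dbp, stayed between -0.16 and 0.14, and Ciart, the repressor CHRONO, between -0.18 and 0.13. The dose difference of the effect, which is the DEP1000 minus air H difference less the DEP200 minus air L one, passed for 0 of 10 members at every day by edgeR, DESeq2 and limma-voom, against 0.00813% of genes called by edgeR at day 1 and 0% at days 7 and 27. At an unadjusted p below 0.05 there was 1 member at day 1 (Nr1d1), against 537 of 12304 genes, and 1 at day 7 (Dbp), against 747 of 14331. For Nr1d1 at day 1 it was 1.25 (95% interval 0.12 to 2.38, edgeR adjusted p = 0.998). Nor did any of the 6 changes of an effect between days pass for a member by these 3 tools (0 of 10 each, against 0% of genes called by edgeR, with 3 values at an unadjusted p below 0.05). Over all genes, 415 to 911 of 14502 had such an unadjusted p in the H set and 727 to 1236 of 14558 in the L set.

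**Figure D2:**
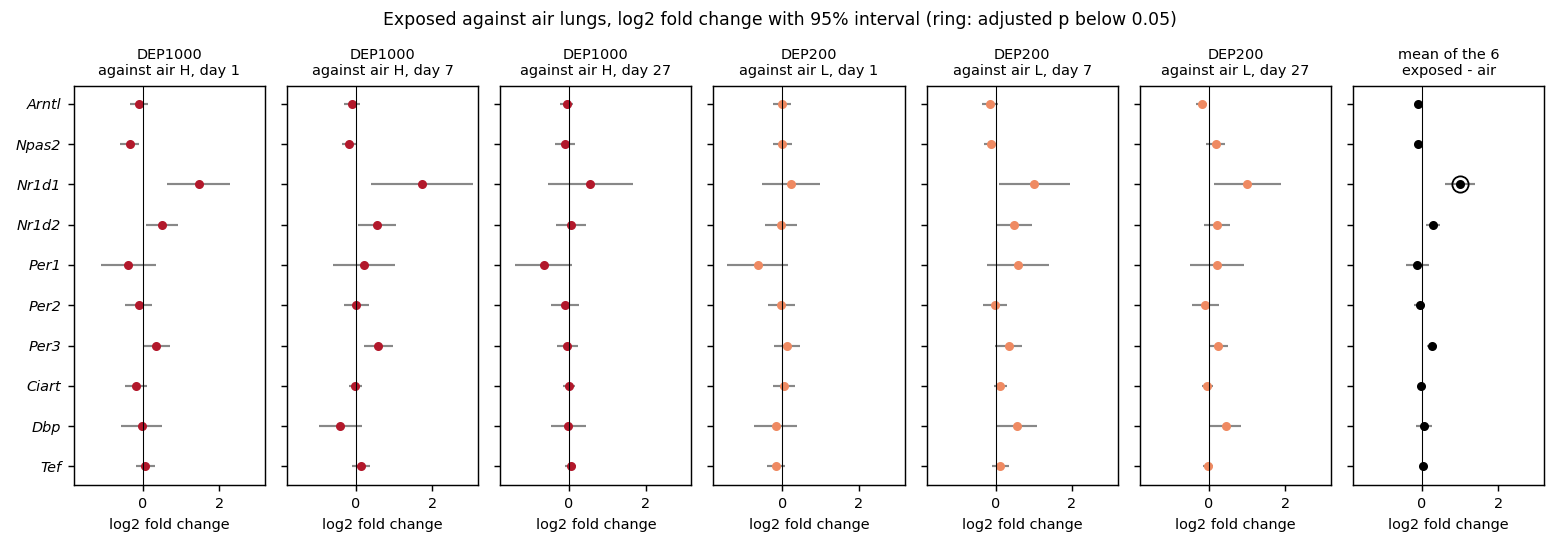
Log2 fold change of exposed over air lungs (horizontal axis) with its 95% interval for the 10 clock genes, in the 6 comparisons and for their mean; n = 6 animals a group. A ring marks an edgeR adjusted p below 0.05, which Nr1d1 has in the mean of the 6 differences, at 0.99, and no gene has in a single comparison. That mean was tested after the Nr1d1 levels had been seen, and the call was lost in 5 of 10 other settings.

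Nr1d1 had a log2 fold change above 0 in all 6 comparisons, in DEP200 against air L at day 1 through animal 62 alone. For that reason the mean of the 6 exposed minus air differences was also tested, in 1 fit of all 72 libraries. This test was added after the Nr1d1 levels had been seen, so its p-value for Nr1d1 is no independent test. Nr1d1 was higher by 0.99 ± 0.20 on the log2 scale (SE, 95% interval 0.60 to 1.39, edgeR adjusted p = 0.0357). It was 1 of the 2 genes called among 14956 (0.0134%). The call was lost in 5 of 10 other settings: without animal 62 the mean difference was 0.90 with an adjusted p of 0.114, and without the 3 shallow libraries it was 1.00 with an adjusted p of 0.0574. It was 1.15 without DEP200 against air L at day 1 (adjusted p = 0.0149), and the adjusted p stayed below the threshold without DEP1000 against air H at day 27 (0.0454). Without any 1 of the other 4 comparisons the adjusted p ran from 0.224 to 0.325. The other members did not pass: Per3 had a mean difference of 0.26 ± 0.07, Nr1d2 of 0.29 ± 0.09, Arntl of -0.10 ± 0.04 and Npas2 of -0.10 ± 0.05 (SE, edgeR adjusted p from 0.514 to 0.961). For Per1, Per2, Dbp, Tef and Ciart it lay between -0.12 and 0.06. The median was 0.64 over the REV-ERB pair, -0.10 over the activators and -0.06 over the period genes, against -0.0053 over all genes tested.

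Nr1d1 lies tail to tail with Thra, the thyroid hormone receptor alpha gene, and the pair overlap in RefSeq's GRCr8 annotation. The libraries were made with a strand-marking kit, but the strand setting of the counting is not given in the sources used here. Thra had a mean exposed minus air difference of -0.01 ± 0.03 on the log2 scale (SE, edgeR adjusted p = 1). Its log2 fold change lay at -0.01 in DEP1000 against air H at day 1 and at -0.06 at day 7, where Nr1d1 had 1.47 and 1.72. In DEP200 against air L at day 27, however, Thra had 0.25 ± 0.08 (SE, unadjusted p = 0.00359, edgeR adjusted p = 0.368), where Nr1d1 had 1.01. In air L lungs Thra fell by 0.49 ± 0.08 on the log2 scale between days 27 and 1 (SE, edgeR adjusted p = 3.8e-06), where Nr1d1 fell by 1.5. Between the air sets, Thra had -0.17 ± 0.06 at day 7 (edgeR adjusted p = 0.0386) and 0.27 ± 0.08 at day 27 (0.0239). In that annotation Npas2 and Per2 overlap non-coding RNAs that the count table does not list.

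The air sets differed in Npas2 at days 7 and 27 and in Nr1d1 and Per3 at day 7, which makes 4 calls of members over the 3 days. Air H and air L lungs both breathed filtered air, and air H lungs are also the comparison group of the DEP1000 lungs above, so the values are given side by side with no overlap test. At day 1, 0 of 10 members passed (edgeR adjusted p below 0.05), where 1.68% of all genes were called, 0.829% higher and 0.853% lower. DESeq2 and limma-voom also called 0. At an unadjusted p below 0.05 there were 2 members, against 2440 of 12304 genes. Nr1d1 passed, however, in a fit of those 12 libraries alone, and Ciart in the fit of all 72. At day 1 Nr1d1 had 7.23, 13.9 and 16.5 CPM (lowest, median, highest) in air H lungs, against 18.0, 26 and 30.4 CPM in air L lungs. Its log2 fold change was -1.01 ± 0.41 (SE, edgeR adjusted p = 0.170). Ciart had 0.43 ± 0.14 (edgeR adjusted p = 0.0799).

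At day 7, 3 of 10 members were lower in air H than in air L lungs and 0 were higher, where 25.5% of all genes were called, 15.2% lower and 10.3% higher. Npas2 had 28.8, 31.6 and 36.3 CPM (lowest, median, highest) in air H lungs, against 50.7, 56.4 and 62.3 CPM in air L lungs. That was a log2 fold change of -0.79 ± 0.09 (SE, edgeR adjusted p = 2.54e-08). Nr1d1 had 1.24, 2.94 and 6.64 CPM in air H lungs, against 6.41, 13.7 and 32.5 CPM in air L lungs (-2.26 ± 0.60, edgeR adjusted p = 0.00771). Per3 averaged 17.9 ± 2.6 CPM in air H lungs and 26.7 ± 5.0 CPM in air L lungs (-0.58 ± 0.18, edgeR adjusted p = 0.0201). Npas2 and its repressor Nr1d1 were thus both lower in the same lungs. Arntl, the other target, had a log2 fold change of 0.18 ± 0.10 (edgeR adjusted p = 0.199).

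At day 27 Npas2 was the 1 member of 10 that passed (14% of genes called, 8.92% higher and 5.11% lower), and it had turned round. It had 48.5, 53.2 and 58.2 CPM in air H lungs, against 31.3, 36.8 and 49.7 CPM in air L lungs, a log2 fold change of 0.49 ± 0.12 (SE, edgeR adjusted p = 0.00791). Nr1d1 again averaged less in air H lungs, at 4.61 ± 2.52 CPM, against 8.95 ± 6.03 CPM in air L lungs (SD; log2 fold change -0.94 ± 0.48, SE, edgeR adjusted p = 0.206). Nr1d1 thus averaged less in air H lungs than in air L lungs at each day, while Npas2 was lower at day 7, higher at day 27 and had a log2 fold change of 0.19 ± 0.12 at day 1.

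Npas2 and Nr1d1 also differed between the exposed sets at day 7. DEP1000 lungs had less Npas2 than DEP200 lungs, with 17.3, 28.9 and 31.3 CPM (lowest, median, highest) in DEP1000 lungs, against 45, 50.7 and 60.1 CPM in DEP200 lungs (log2 fold change -0.84 ± 0.09, SE, edgeR adjusted p = 3.43e-08). The 17.3 CPM is 2 counts in shallow animal 37, and the lowest of the deeper DEP1000 libraries was 23.6 CPM. Nr1d1 averaged 8.88 ± 5.45 CPM in DEP1000 lungs and 31.0 ± 23.7 CPM in DEP200 lungs (-1.56 ± 0.49, edgeR adjusted p = 0.0220, and 0.0729 with the 12 libraries alone). Dbp had -0.71 ± 0.27 (edgeR adjusted p = 0.0498), a call that was lost in 8 of 10 other settings, with adjusted p between 0.0221 and 0.190, among them the fit without shallow animal 37. These 3 of 10 members were lower and 0 higher, where 27.9% of all genes were called, 16.2% lower and 11.7% higher. At days 1 and 27, 0 of 10 passed by edgeR, DESeq2 or limma-voom, where edgeR called 0% of genes. Per1 alone had an unadjusted p below 0.05 at day 1 (0.85 ± 0.38), against 1536 of 12304 genes. At day 27 the log2 fold changes of Per3 (-0.52 ± 0.13), Nr1d2 (-0.61 ± 0.18) and Nr1d1 (-1.39 ± 0.47) had unadjusted p of 0.000478, 0.00286 and 0.00800. Over all genes, 1086 of 14761 had an unadjusted p below 0.05 there.

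Some cell type markers also differed between the same sets at day 7, and only some of the marker lists are given here. In air H against air L lungs, 25.5% of all genes were called, 15.2% lower and 10.3% higher. There 4 of 6 type I pneumocyte genes were lower and 1 higher, and 2 of 7 type II genes were lower. Of 5 endothelial genes 2 were lower and 1 higher, among them Kdr, a VEGF receptor, at -1.10 ± 0.08 on the log2 scale (SE, edgeR adjusted p = 4.09e-11) and Cldn5 at 0.49 ± 0.08. Of 5 neutrophil genes 2 were higher. The part of cell makeup in the clock gene differences was not tested.

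**Figure D3:**
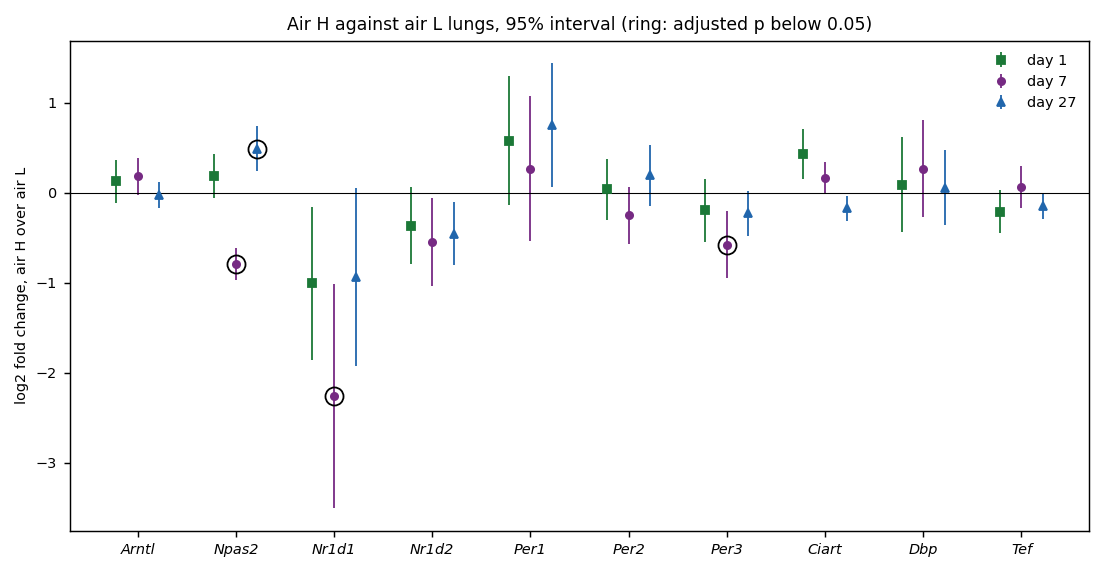
Log2 fold change of air H over air L lungs (vertical axis) with its 95% interval for the 10 clock genes at days 1, 7 and 27; n = 6 animals a group. Rings mark an edgeR adjusted p below 0.05: Npas2, Per3 and Nr1d1 are lower at day 7, and Npas2 is higher at day 27.

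Levels also differed by day of killing within a set, and day 1 libraries are shallower, so depth and day 1 cannot be told apart. In air H lungs, Npas2 averaged 70.4 ± 9.0 CPM at day 1, 32.4 ± 3.0 CPM at day 7 and 53.5 ± 3.3 CPM at day 27 (SD, n = 6 each). DEP1000 lungs averaged 54.5 ± 7.8, 26.8 ± 5.4 and 54.2 ± 12.6 CPM at those days. In the L set the lowest mean was at day 27: Npas2 averaged 61.3 ± 10.01, 51.5 ± 6.2 and 42.8 ± 7.6 CPM in DEP200 lungs, and 61.2 ± 11.2, 56.2 ± 4.8 and 37.8 ± 6.7 CPM in air L lungs. Among the 12 group means of Npas2 in order, only the gaps just below DEP200 at day 7 and just below air H at day 7 exceeded the larger SD of the neighbours. Without the shallow libraries DEP1000 at day 27 averaged 47.8 ± 9.5 CPM (SD, n = 4), between DEP200 at day 7 and DEP200 at day 27, and the first of these gaps no longer exceeded the SD.

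Between days 7 and 1, 4 of 10 members were lower in air H lungs (38.6% of genes called, 18.1% lower and 20.4% higher): Npas2 (-1.08 ± 0.11), Per3 (-0.49 ± 0.14), Nr1d1 (-1.94 ± 0.40) and Nr1d2 (-0.55 ± 0.20; log2 ± SE, edgeR adjusted p from 1.70e-11 to 0.0325). In DEP1000 lungs 4 of 10 were lower (39.3% of genes called, 19.2% lower and 20.1% higher): Npas2 (-0.91 ± 0.12), Nr1d1 (-1.69 ± 0.32), Nr1d2 (-0.51 ± 0.20) and Dbp (-0.73 ± 0.24; edgeR adjusted p from 3.40e-08 to 0.0471). The Nr1d2 call there was lost in 4 of 9 other settings, with adjusted p up to 0.0855. Npas2 and the REV-ERB pair thus fell side by side in the H set, while Arntl had 0.18 ± 0.09 in air H lungs and 0.19 ± 0.10 in DEP1000 lungs (edgeR adjusted p = 0.107 and 0.130). In the L set, air L lungs had 0 of 10 members past the threshold at that step (edgeR, 13.6% of genes called). DESeq2 and limma-voom also called 0 there. Ciart alone had an unadjusted p below 0.05, against 3864 of 14558 genes. DEP200 lungs had 2 of 10, both higher (5.3% of genes called higher): Per1 (1.53 ± 0.40, edgeR adjusted p = 0.00985) and Ciart (0.36 ± 0.11).

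Between days 27 and 7, Npas2 rose in air H lungs (0.69 ± 0.10) and in DEP1000 lungs (0.76 ± 0.11), and fell in air L lungs (-0.56 ± 0.11; log2 ± SE, edgeR adjusted p from 2.86e-07 to 0.000382). In air H lungs Ciart also fell (-0.23 ± 0.08, edgeR adjusted p = 0.0203, lost in 5 of 9 other settings), making 2 of 10 members where 30% of genes were called. In DEP1000 lungs Per3 also fell (-0.48 ± 0.13), making 2 of 10 where 17.7% were called. In air L lungs Tef also rose (0.32 ± 0.11), making 2 of 10 where 16.2% were called. In DEP200 lungs 0 of 10 passed by edgeR, DESeq2 or limma-voom, where edgeR called 4.2% of genes. There Npas2 alone had an unadjusted p below 0.05, against 2592 of 14558 genes.

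Between days 27 and 1, the fall of Nr1d1 passed in 3 of the 4 arms. Nr1d1 fell by 1.43 ± 0.37 on the log2 scale in air H lungs, by 2.33 ± 0.35 in DEP1000 lungs and by 1.5 ± 0.58 in air L lungs (SE, edgeR adjusted p from 1.25e-05 to 0.0477). The call in air L lungs was lost in 3 of 9 other settings, with adjusted p up to 0.0850, and that in air H lungs in 1 of 9, with adjusted p up to 0.0956. In mean level that was 4.61 ± 2.52 CPM at day 27 against 13 ± 3.4 CPM at day 1 in air H lungs, and 7.06 ± 2.38 CPM against 34.7 ± 14.2 CPM in DEP1000 lungs. DEP200 lungs also averaged less Nr1d1 at day 27, with 18.2 ± 9.5 CPM against 29.1 ± 24.4 CPM, but this did not pass. Their day 1 mean includes animal 62, at 78.6 CPM. The fall of Dbp passed in both H arms, and those of Per3 and Nr1d2 in DEP1000 lungs. That made 3 of 10 members in air H lungs (10.5% of genes called) and 4 of 10 in DEP1000 lungs (16.1%). The Dbp call in DEP1000 lungs (-0.71, edgeR adjusted p = 0.0401) was lost in 5 of 9 other settings, with adjusted p up to 0.0911, and that in air H lungs (-0.73, edgeR adjusted p = 0.0202) in 1 of 9, at 0.0549. Npas2 fell in air H, air L and DEP200 lungs. The rise of Ciart passed in air L and DEP200 lungs and that of Per1 in DEP200 lungs (1.47 ± 0.40). That made 3 of 10 members in air L lungs (31.9% of genes called) and 3 of 10 in DEP200 lungs (23.3%).

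Ordered by level, Nr1d1 group means ran from 34.7 ± 14.2 CPM (DEP1000, day 1) to 3.29 ± 1.94 CPM (air H, day 7), 10.6-fold. None of its 11 gaps between neighbouring groups exceeded the larger of the neighbours' SDs. Nr1d2 ran from 77.9 ± 23.7 CPM (DEP1000, day 1) to 37.3 ± 9.0 CPM (air H, day 7), so the highest and the lowest group were the same as for Nr1d1. Per1 ran from 171 ± 61 CPM (air H, day 27) to 41.9 ± 3.2 CPM (DEP200, day 1), Per3 from 33.7 ± 12.1 CPM (DEP200, day 7) to 16.4 ± 6.3 CPM (DEP1000, day 27). Without the 2 shallow libraries of that last group its Per3 mean was 20.2 ± 1.9 CPM (SD, n = 4), and the lowest was then air H at day 7, with 17.9 ± 2.6 CPM (SD, n = 6). The span between the highest and lowest group mean was 1.25-fold for Arntl, 1.27-fold for Per2, 1.29-fold for Tef, 1.36-fold for Ciart, 1.86-fold for Dbp and 2.62-fold for Npas2.

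Animals of 1 group also differed from each other, and here some pairs of members moved together or in opposite directions. Levels were taken as log2 CPM minus the group mean, and 15 pairs were correlated over animals, 2 of them added after the values were seen (permutation within groups, two-sided, adjusted over the 15). The 3 shallow libraries decide several of these values, so both are given. Over the 69 deeper libraries Arntl ran against Nr1d2, with r = -0.57 (rho = -0.44, permutation adjusted p = 0.00015). Arntl also ran against Nr1d1, with r = -0.50 (rho = -0.40, permutation adjusted p = 0.000338), and against Per3, with r = -0.44 (rho = -0.31, permutation adjusted p = 0.0110). With all 72 libraries these were -0.40 for Nr1d2 (permutation adjusted p = 0.0143), -0.02 for Nr1d1 (0.884) and -0.16 for Per3 (0.423). With the 2 animals farthest in Arntl left out of the 69, r was -0.45 for Nr1d2, -0.37 for Nr1d1 and -0.22 for Per3, so the relation to Per3 rests largely on those 2.

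Of the 15 pairs, Nr1d1 with Nr1d2 and Nr1d1 with Per3 are the 2 added after the values were seen, so their p-values are no independent test. Nr1d1 and Nr1d2 had r = 0.82 over the 69 libraries (rho = 0.81, permutation adjusted p = 7.5e-05, the smallest the resamples allow) and 0.57 over 72 (permutation adjusted p = 0.0003). Nr1d1 and Per3 had 0.67 (rho = 0.64, permutation adjusted p = 7.5e-05, again the smallest) and 0.45 over 72. Both pairs held without the 2 animals farthest in Nr1d1, at 0.79 and 0.63. Within subsets of the 69 libraries, Nr1d1 with Nr1d2 was 0.88 in exposed and 0.76 in air lungs, and 0.78, 0.86 and 0.85 at days 1, 7 and 27. Arntl with Nr1d2 was -0.73 in exposed and -0.27 in air lungs, and -0.44 in the H set and -0.67 in the L set. Arntl with Nr1d1 was -0.63 in exposed and -0.33 in air lungs, and -0.21 in the H set and -0.64 in the L set. The difference between exposed and air lungs was not tested.

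**Figure D4:**
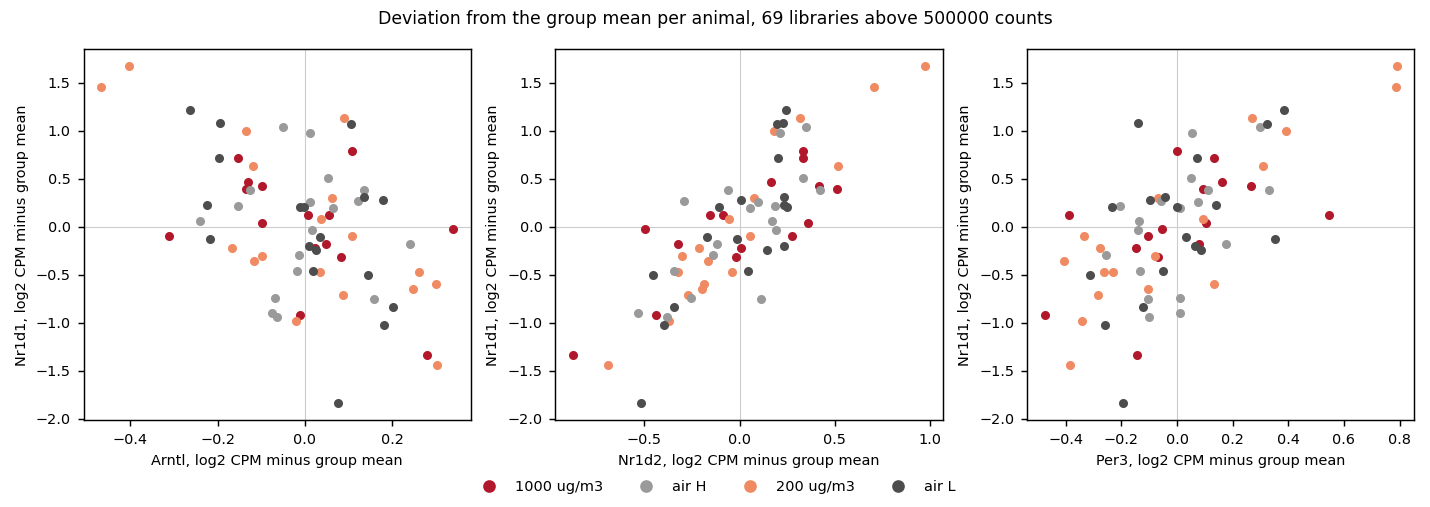
Log2 CPM minus the group mean for each animal, Nr1d1 (vertical axis) against Arntl, Nr1d2 and Per3 (horizontal axes), in the 69 libraries above 500000 counts; each point is 1 animal, coloured by arm. Nr1d1 falls as Arntl rises (r = -0.50) and rises with Nr1d2 (r = 0.82) and Per3 (r = 0.67). With all 72 libraries r was -0.02 for Arntl, 0.57 for Nr1d2 and 0.45 for Per3.

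Several members ranked at the ends of the genes compared by this measure. Those were genes of the fit of 72 libraries with a mean log2 CPM of at least 1. Symbols that are bare identifiers (LOC, RGD and the like) were left out. Among the 12598 other genes so compared over the 69 libraries, Nr1d2 had the lowest within-group r with Arntl, Nr1d1 the third lowest and Per3 the seventh lowest. Over all 72 libraries those ranks from the lowest were 119 for Nr1d2, 3703 for Nr1d1 and 1787 for Per3, so these places rest on leaving out the 3 shallow libraries. For Nr1d1, ranked over the 69 libraries alone, Nr1d2 had the highest and Per3 the next highest r of the genes compared, and Arntl the lowest. Per2 stood near the low end for Nr1d1, with r = -0.40 and rank 13 from the lowest. For Dbp, its paralogue Tef came at rank 8 from the highest (r = 0.43) and Per3 at rank 80 (r = 0.35, permutation adjusted p = 0.0506), against ranks 932 and 509 over all 72. Dbp and Nr1d1 had r = 0.24 (permutation adjusted p = 0.170), and Dbp had -0.18 with Per1 and 0.01 with Per2. Arntl and Npas2, the activators, had 0.17 (permutation adjusted p = 0.298), and Arntl with Per1, Per2 and Ciart lay between -0.07 and 0.06.

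Single animals carried several extremes at once. Animal 78 (DEP200, day 7) had the lowest Arntl of the 69 libraries, at 43.2 CPM, and the highest Per3 (56.0 CPM), Dbp (16.9 CPM) and Tef (131 CPM). Animal 62 (DEP200, day 1) had the highest Nr1d1 (78.6 CPM) and Nr1d2 (128 CPM). In its group the next highest animal had 22.6 CPM of Nr1d1 and 67.3 CPM of Nr1d2. Animal 76 (DEP200, day 7) had the highest Per1 (256 CPM) and the lowest Dbp (2.89 CPM) and Tef (59 CPM).

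To set the opposing sides of the clock in 1 value per animal, the mean log2 CPM of Nr1d1, Dbp, Per1, Per2 and Per3 was subtracted from that of Arntl and Npas2. The genes differ in length, so its 0 has no meaning and only differences between lungs do; no test was made. At day 1 it averaged 1.2 ± 0.21 in DEP1000 lungs and 1.66 ± 0.34 in air H lungs, and 1.51 ± 0.45 in DEP200 lungs and 1.37 ± 0.28 in air L lungs (SD, n = 6 each). At day 7 it averaged 1.26 ± 0.32 in DEP1000 lungs and 1.76 ± 0.21 in air H lungs, and 1.08 ± 0.56 in DEP200 lungs and 1.61 ± 0.37 in air L lungs. At day 27 it averaged 1.94 ± 0.41 in DEP1000 lungs and 1.81 ± 0.18 in air H lungs, and 1.2 ± 0.25 in DEP200 lungs and 1.58 ± 0.21 in air L lungs. Exposed lungs thus had the lower ratio in 4 of 6 comparisons, and in 5 of 6 without the shallow libraries. Without them DEP1000 lungs at day 27 averaged 1.72 ± 0.09 (SD, n = 4). The ratio holds Nr1d1, whose log2 fold change was above 0 in 6 of 6 comparisons, so it is no separate result. A lower ratio does not tell which of its sides moved. The differences of group means lay between -0.53 and 0.14, and the ranges of exposed and air animals overlapped in every comparison. Animal 78 had the lowest ratio of all, at 0.08.

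**Figure D5:**
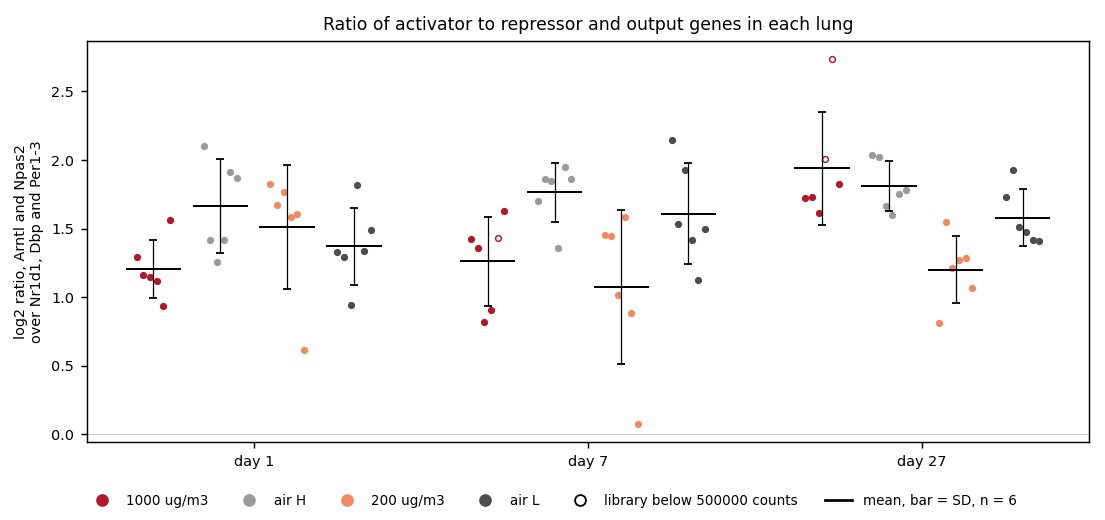
Log2 ratio of the activators Arntl and Npas2 over Nr1d1, Dbp, Per1, Per2 and Per3 (vertical axis) in every lung, by group and day. Points are animals, open points the 3 libraries below 500000 counts, and black marks the mean and SD of 6 animals; the DEP200 mean of 1.08 at day 7 is the lowest group mean.

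Other clock genes were read from lists of core genes, regulators and outputs. None of the 8 other core genes, 7 regulators and 9 output genes tested passed in any exposed against air comparison, nor did any of 9 glucocorticoid-induced genes, among them Per1. Of all genes, edgeR called 0.00698% in DEP200 against air L at day 7 and 0% in the other exposed against air comparisons. Between the air sets at day 7, 3 of the 8 other core genes passed, where 25.5% of all genes did: Bhlhe40, an E-box repressor also called DEC1, was lower in air H lungs (18.5 ± 3.9 CPM in air H lungs and 33.6 ± 3.9 CPM in air L lungs, log2 fold change -0.86 ± 0.12, SE, edgeR adjusted p = 1.36e-06), Clock was lower (-0.20 ± 0.06) and Cry1, a partner of the PER proteins, was higher (0.39 ± 0.14). At day 27, where 14% of all genes passed, Bhlhe40 was the 1 of 8 to pass, and was higher in air H lungs (34.3 ± 4.3 CPM in air H lungs and 21 ± 4.5 CPM in air L lungs, 0.71 ± 0.13, edgeR adjusted p = 0.000784). Bhlhe40 thus had the same order of air groups as Npas2 at both days. In DEP1000 against DEP200 at day 7 Bhlhe40 had -1.36 ± 0.13, with 15.3 ± 2.6 CPM in DEP1000 lungs and 38.3 ± 4.1 CPM in DEP200 lungs, the 1 of 8 to pass where 27.9% of all genes did.

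Among regulators, the kinase gene Gsk3b was lower in air H than air L lungs at day 7 (-0.26 ± 0.09, log2 ± SE, edgeR adjusted p = 0.0263). It was also lower in DEP1000 than DEP200 lungs at that day (-0.32 ± 0.09, edgeR adjusted p = 0.00902). Timeless was higher in air H than air L lungs at day 27 (0.45 ± 0.11), 1 of 7, where 14% of all genes passed. Among outputs, Por, the cytochrome P450 reductase gene that cycles in liver, had 52.9 ± 9.8 CPM in air H lungs and 126 ± 7 CPM in air L lungs at day 7 (-1.26 ± 0.11, edgeR adjusted p = 3.37e-09), 1 of 9 against 25.5% of all genes, and -1.03 ± 0.12 in DEP1000 against DEP200 lungs. Fmo2, a lung flavin monooxygenase gene, was higher in air H lungs at day 1 (0.63 ± 0.11, edgeR adjusted p = 0.0121), 1 of 9 against 1.68% of all genes. In the mean of the 6 exposed minus air differences, 0 genes of these lists passed, where 0.0134% of all genes did. Usp2, a deubiquitinase gene with strong daily cycles in many organs, had the smallest p of them, with 0.31 ± 0.12 (edgeR adjusted p = 0.879).

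The genes most like a member were named by within-group r among 12589 genes that are not members, under the same limits on level and symbol. Over 72 libraries those nearest to Arntl were Pgrmc2 (r = 0.65), Frrs1, Rpl36a, Themis and Rab20 (0.63), and those nearest to Dbp were Dazap1 (r = 0.74), Cep57, Med11, Tbc1d19 and Vps72 (0.71). These rest on the shallow libraries, since without them Pgrmc2 had 0.32 with Arntl and Dazap1 0.40 with Dbp. Over the 69 deeper libraries the nearest to Arntl were Pop5 (r = 0.50), Hmox2, Scd1, Acaca and Haghl (0.44), and to Dbp Ap3m2 (r = 0.53), Cd22, Kcnk2, Amt and Yars2 (0.44). For Nr1d1 they were Cpt1a (r = 0.53), the gene of the enzyme that carries fatty acids into mitochondria, Casz1, Angptl4, Prdm1 and Jag2 (0.48), all below its r of 0.82 with Nr1d2 and 0.67 with Per3.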

How the data were processed

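For 72 rat lung libraries, each from 1 animal, the authors deposited whole-number read counts per gene in 1 table, with no normalization. Per the submitters' processing notes, bcl2fastq 2.19, Trimmomatic 0.35, HISAT2 2.1.0, SAMtools 1.8 and HTSeq 0.6.1 were used with genome build Rnor_6.0; for the strand setting and gene annotation release, no source used here says. Groups come from the sample titles. The 10 members and all gene lists were chosen with earlier results of these data known, and the lists were written by hand. Counts were scaled by TMM, filtered by group (filterByExpr) and tested in R 4.3.3 with edgeR 4.0.16 (robust quasi-likelihood F test, Benjamini-Hochberg over all genes tested, threshold 0.05). The 24 libraries of a day were fitted together, the 36 of a letter set for days, and all 72 for the mean difference. SEs are the log2 fold change over the root of F. CPM carry no added count; log2 CPM for correlations and the ratio used a prior count of 2. Correlations used 100000 permutations within groups. The named genes were all members, list genes that passed or had the smallest p, and the 5 nearest to Arntl and to Dbp; the 5 nearest to Nr1d1 were added. Alternatives used RLE factors, no factors, other filters, DESeq2 1.42.0, limma-voom 3.58.1, non-robust dispersions, other sets of libraries, and no shallow libraries (below 500000 counts). Fits were tested on simulated data. The result of 1 gene of the regulator list is not reported here. Animals are separate by number, and p-values measure the spread between them. The rats were housed in pairs, but the labels used here do not name the cage, and no cage term was fitted. Promoters are RefSeq's on another build, GRCr8, and were matched by gene name, not by coordinates.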

Additional observations from a re-analysis of the deposited data

Results flagged for a closer look

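Of 120 combinations of a member with a group of 6 animals, 11 had 1 animal whose gap to the nearest other, divided by the range of the group, exceeded Dixon's critical value for 6 samples. Chance flags about 1 in 20 such groups. Animal 62 (DEP200, day 1) stood above the rest in Nr1d1 (78.6 CPM, others 15.9 to 22.6), Nr1d2 (128 CPM, others 51.5 to 67.3) and Per3 (52.8 CPM, others 23.9 to 33.3). Animal 76 (DEP200, day 7) had the highest Per1 of its group, at 256 CPM (others 62.9 to 135). Animal 33 (air H, day 7) had the highest Arntl, at 83.1 CPM (others 72.2 to 76.2). On the low side were Npas2 in animal 29 of DEP1000 at day 1 (39.0 CPM, others 55.0 to 59.7), Dbp in animal 8 of the same group (3.82 CPM from 5 counts, others 8.64 to 10.5), Per3 in animal 18 of air H at day 27 (18.4 CPM, others 20.5 to 21.1) and Ciart in animal 66 of air L at day 7 (37.3 CPM, others 46.9 to 50.4). The other 2 belong to shallow animal 37 of DEP1000 at day 7 and rest on a few reads: Dbp at 8.66 CPM from 1 count and Ciart at 26 CPM from 3 counts.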

How the results depend on the processing

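No paired analysis was possible because no animal number occurs in more than 1 group. Summed over days, the counts of members that passed kept within 1.5 times of those reported, apart from the following. Fitted with their own 12 libraries, exposed against air comparisons gave 1 member (Per1, in place of 0) and DEP1000 against DEP200 gave 1 (Npas2, in place of 3). Within single days, air H against air L gave 1 member at day 1 in place of 0 (Nr1d1 with those 12 libraries, Ciart in the fit of all 72) and 2 at day 27 in place of 1 (Npas2 and Nr1d2, with DESeq2 and with non-robust dispersions). For the mean of the 6 exposed minus air differences, 0 members passed with no filter, with limma-voom, without the 3 shallow libraries, with the number series (animal numbers below 25, or from 25 on, in the H set) as a block, and without animal 62. The Nr1d1 adjusted p ran from 0.00126 (DESeq2) to 0.114 over the 10 settings, and its value from 0.90 to 1.01. Among the log2 fold changes recomputed (those of Nr1d1 and Nr1d2 against air, their means, and called ones of other members), the only turn of sign was Nr1d1 in DEP200 against air L at day 1, at -0.019 with limma-voom. Day contrasts gave 23 to 31 calls of members in all, against 29, where edgeR called 4.2% to 39.3% of all genes in each. Single ones gave 1 call in place of 2 in air H lungs at day 27 against day 7 (5 settings), in DEP1000 lungs there (fit of all 72), in DEP200 lungs at day 7 against day 1 (limma-voom) and in air L lungs at day 27 against day 7 (no filter), and 1 in place of 3 in air H lungs at day 27 against day 1 (fit of all 72). With all 8 other members on the repressor side, the ratio was 0.69 (DEP1000) and 1.1 (air H), and 0.96 (DEP200) and 0.84 (air L) at day 1, 0.57 (DEP1000) and 1.04 (air H), and 0.56 (DEP200) and 1.02 (air L) at day 7, and 1.26 (DEP1000) and 1.19 (air H), and 0.60 (DEP200) and 0.86 (air L) at day 27, since it then holds genes of other levels. Within-group r without the shallow libraries was -0.067 for Arntl with Per1, 0.065 with Per2, -0.0199 with Ciart, -0.44 with Per3, -0.50 with Nr1d1, and 0.35 for Dbp with Per3. Without the 2 libraries farthest in the first gene it was -0.065 for Arntl with Per1, 0.11 with Per2, 0.12 with Dbp, -0.0018 with Ciart, -0.41 with Nr1d1 and -0.34 with Nr1d2, and 0.24 for Dbp with Per3. Those of Arntl with Per1, Per2 and Ciart, and with Dbp in the second case, have the opposite sign to all 72 libraries. Depth limits genes of few reads, such as Dbp, with 4 to 25 counts in the day 1 libraries, and Nr1d1, with 6 to 29 in air H libraries at day 7.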
